A study of Mus musculus with 4 samples.

Results

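The genes whose products build the centromere and the kinetochore were examined in mouse intestinal organoids, 3-dimensional epithelial cultures, of 2 Tacc3 genotypes, wt/wt and fl/fl. The members were chosen by name and not by any measured value: every gene on the platform annotation with a symbol of Cenp followed by a letter, apart from Cenpj, together with Ndc80, Nuf2, Spc24, Spc25, Mis12, Dsn1, Nsl1, Pmf1, Knl1 (also called Casc5), Zwint, Spag5, Ska1, Ska2, Ska3, Zwilch and Zw10. This gave 36 of the 18193 genes with a probe set of their own. Each gene is represented by its brightest probe set, the one with the highest mean over the 4 arrays. A gene was counted where that mean was at least the median of all probe sets, an intensity of 16.9, which 35 members and 11392 genes in all reached. Ska3 did not reach it, with intensities between 8.65 and 25.9.

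There were 4 groups of 1 Affymetrix array each: wt/wt at day 4, wt/wt at day 6, fl/fl at day 4 and fl/fl at day 6. Every culture, wt/wt included, had received 4OHT (4-hydroxytamoxifen) for 24 hours, the drug given to recombine Apc and Tacc3. The design text describes this recombination for both collection days, whereas the sample notes call the day 4 arrays normal and the day 6 arrays Apc-deficient, so the Apc state of each group is not settled. The sources used here do not give the Apc alleles, the driver of the recombinase, the age of the animals or the number of animals or organoid lines. With 1 array per group no difference below has a replicate check, and no p-value was computed. Differences are on the scale of log2(intensity + 16), which understates those of dim genes, and a difference of 1 or more is called 2-fold. Where a pair of day differences is given, wt/wt comes first and fl/fl second, and each pair of intensities runs from day 4 to day 6 in the same order of genotypes.

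The kinetochore is the protein assembly through which a mitotic chromosome holds spindle microtubules. It is built on centromeric chromatin marked by the histone H3 variant CENP-A, on which the constitutive centromere-associated network (CCAN) sits throughout the cell cycle. In mitosis the KMN network (KNL1, the Mis12 complex and the Ndc80 complex) is added and binds microtubules, and corona and spindle proteins such as CENP-E, the RZZ complex and astrin gather on it. Tacc3 encodes a mitotic spindle protein that works with clathrin and ch-TOG on kinetochore fibres. In the intestine, dividing cells are found in the crypts, so that mitotic transcripts mark the crypt compartment. In whole organoids, fewer dividing cells and less RNA per cell cannot be told apart.

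Many genes of this kind are known to be read mainly in G2 and mitosis, through a cell cycle genes homology region (CHR, TTTGAA) and CCAAT boxes close to their start, and others carry E2F sites. The RefSeq table of GRCm38.p6 held 35 promoter windows, each running from 250 bases before to 50 bases after a start, for 32 members; Zwilch, Spc24, Nsl1 and Ska1 had none there. The sequences were searched on both strands for TTTGAA, for CCAAT and for the E2F-type letters TTTGGCGC, TTTCCCGC, TTTGGCGG and TTTCCCGG. No match of one motif overlapped a match of another in the windows printed here, although a pair of CCAAT matches in Cenpq abut. TTTGAA was found in 12 of the 35 windows (34.3%), against 17.9% of all 32851 windows in the table. CCAAT was found in 23 (65.7%), against 37.4% of all windows, and both together in 8 (22.9%), against 6.95%. Any of the E2F-type letters was found in 6 (17.1%), against 3.32%. The member windows had a median GC content of 59.3%, against 52.7% in all windows, and the shares were not adjusted for it. A match is a description of letters and not of a bound site.

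Shown here are 6 windows, 5′ to 3′ on the strand of the gene, with every motif match in capitals. Of these, 3 are members that hold both motifs and were 2-fold higher at day 6 in wt/wt organoids (Cenpa, Cenpf and Spag5). Another was higher in both genotypes with CCAAT boxes alone (Cenpq). The remaining pair, Ndc80 and Nuf2, are partners in the Ndc80 complex that differ in their letters. Cenpa, Cenpf and Spag5 were picked by day difference from 8 members with both motifs. In wt/wt, those not printed had 0.90 (Cenpl), 0.21 (Cenpn), 0.83 (Cenpw), 0.55 (Spc25) and -0.90 (Pmf1). Of those, Cenpw alone was 2-fold higher in fl/fl (1.12). Averaging over probe sets gave 0.45, 0.01 and 0.51 for Cenpa, Cenpf and Spag5 in wt/wt, all short of 2-fold. No link of motifs with day difference is read from the printed windows. The windows are Cenpa at chr5:30666636-30666935 on the plus strand, Cenpf at chr1:189688037-189688336 on the minus strand, Spag5 at chr11:78301341-78301640 on the plus strand, and Cenpq at chr17:40934525-40934824, Ndc80 at chr17:71526808-71527107 and Nuf2 at chr1:169531415-169531714 on the minus strand, all in GRCm38.p6.
Cenpa: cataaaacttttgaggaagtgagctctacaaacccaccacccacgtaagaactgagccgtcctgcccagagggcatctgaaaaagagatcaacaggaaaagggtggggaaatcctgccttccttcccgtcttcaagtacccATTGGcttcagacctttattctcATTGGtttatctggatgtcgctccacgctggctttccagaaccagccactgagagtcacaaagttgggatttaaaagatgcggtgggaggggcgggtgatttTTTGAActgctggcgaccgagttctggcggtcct
Cenpf: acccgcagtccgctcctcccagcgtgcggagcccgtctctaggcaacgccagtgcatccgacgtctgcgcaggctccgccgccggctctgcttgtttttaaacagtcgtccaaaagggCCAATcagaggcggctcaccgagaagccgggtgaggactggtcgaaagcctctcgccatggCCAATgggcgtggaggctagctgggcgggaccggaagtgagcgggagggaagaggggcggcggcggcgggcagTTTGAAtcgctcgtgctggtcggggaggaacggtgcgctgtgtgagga
Spag5: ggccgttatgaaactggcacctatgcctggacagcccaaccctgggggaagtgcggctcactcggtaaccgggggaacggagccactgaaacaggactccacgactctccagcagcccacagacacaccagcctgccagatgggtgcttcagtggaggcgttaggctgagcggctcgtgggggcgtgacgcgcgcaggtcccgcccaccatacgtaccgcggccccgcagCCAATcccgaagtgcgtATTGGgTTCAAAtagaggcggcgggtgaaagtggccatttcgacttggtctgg
Cenpq: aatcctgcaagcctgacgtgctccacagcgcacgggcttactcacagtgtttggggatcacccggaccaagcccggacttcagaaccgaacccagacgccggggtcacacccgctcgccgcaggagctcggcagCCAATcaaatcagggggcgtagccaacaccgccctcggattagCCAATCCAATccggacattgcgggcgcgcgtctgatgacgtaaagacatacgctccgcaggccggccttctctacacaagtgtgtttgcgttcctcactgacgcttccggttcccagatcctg
Ndc80: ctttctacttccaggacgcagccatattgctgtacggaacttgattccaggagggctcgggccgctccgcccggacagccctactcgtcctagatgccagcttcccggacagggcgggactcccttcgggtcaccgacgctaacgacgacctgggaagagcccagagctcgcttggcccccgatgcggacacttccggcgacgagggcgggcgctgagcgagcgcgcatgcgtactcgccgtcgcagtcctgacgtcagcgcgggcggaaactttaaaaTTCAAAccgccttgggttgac
Nuf2: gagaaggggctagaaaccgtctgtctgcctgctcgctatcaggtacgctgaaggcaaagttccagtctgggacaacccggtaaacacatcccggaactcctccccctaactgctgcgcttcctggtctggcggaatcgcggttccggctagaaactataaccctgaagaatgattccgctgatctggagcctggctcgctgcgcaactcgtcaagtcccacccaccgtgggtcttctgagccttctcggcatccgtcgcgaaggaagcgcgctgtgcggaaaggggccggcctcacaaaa
Counting from the start as 0, the first base of the TTTGAA match lay at 16 in Cenpa, at 2 in Cenpf, at 3 in Spag5 and at 29 in Ndc80, on the opposite strand in the latter pair. The CCAAT matches, on either strand, began at -109 and -86 in Cenpa, at -132 and -71 in Cenpf, at -20 and -3 in Spag5, and at -116, -73 and -68 in Cenpq. Ndc80 held no CCAAT letters, and Nuf2 held none of the motifs.

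The 4 arrays held epithelial markers, as labelled, and differed in quality between the days. Tacc3 itself, the floxed gene, was lower in fl/fl cultures: at day 4 it read 184 (wt/wt) and 59.8 (fl/fl), and at day 6 it read 167 and 49.7. Apc read 27.9 at day 4 and 122 at day 6 in wt/wt and 53.5 and 149.6 in fl/fl cultures, so it was higher on the arrays whose notes call them Apc-deficient; whether its probe set lies in a deleted part was not examined here. Epithelial markers (Epcam, Cdh1, Vil1, Krt8 and Cdx2) had a summed intensity of 9990 at day 4 and 17177 at day 6 in wt/wt. In fl/fl cultures it was 12996 and 18223. All 5 markers were above the filter. Of 5 mesenchymal markers 1 was above it (summed intensity 55.0 to 108), as was 1 of 3 immune markers (26.1 to 43.0), and neither of the endothelial markers was (17.3 to 34.3). The 5' to 3' ratio of Actb, a measure of RNA integrity, was 0.0610 and 0.0627 at day 4 (wt/wt and fl/fl) and 0.180 and 0.261 at day 6; that of Gapdh was 0.208 and 0.142 at day 4 and 0.411 and 0.524 at day 6. The day 4 arrays had brighter hybridization controls than the day 6 arrays, by 2.13-fold for wt/wt and 2.14-fold for fl/fl. These values move with the day in every day difference below, and their part in it was not tested.

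Member levels spanned a wide range on each array. In wt/wt organoids, intensities of the members above the filter ran from 13.6 (Cenpl) to 256 (Zwint) at day 4 and from 26.006 (Nsl1) to 295 (Cenpa) at day 6. In fl/fl organoids they ran from 17.6 (Cenpl) to 275 (Zwint) at day 4 and from 26.7 (Nsl1) to 336 (Cenpa) at day 6. The median member intensity was 53.3 and 61.8 at day 4 (wt/wt and fl/fl) and 84.0 and 97.8 at day 6. Levels of different probe sets are not comparable with each other, so these ranges describe brightness and not abundance.

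**Figure D1:**
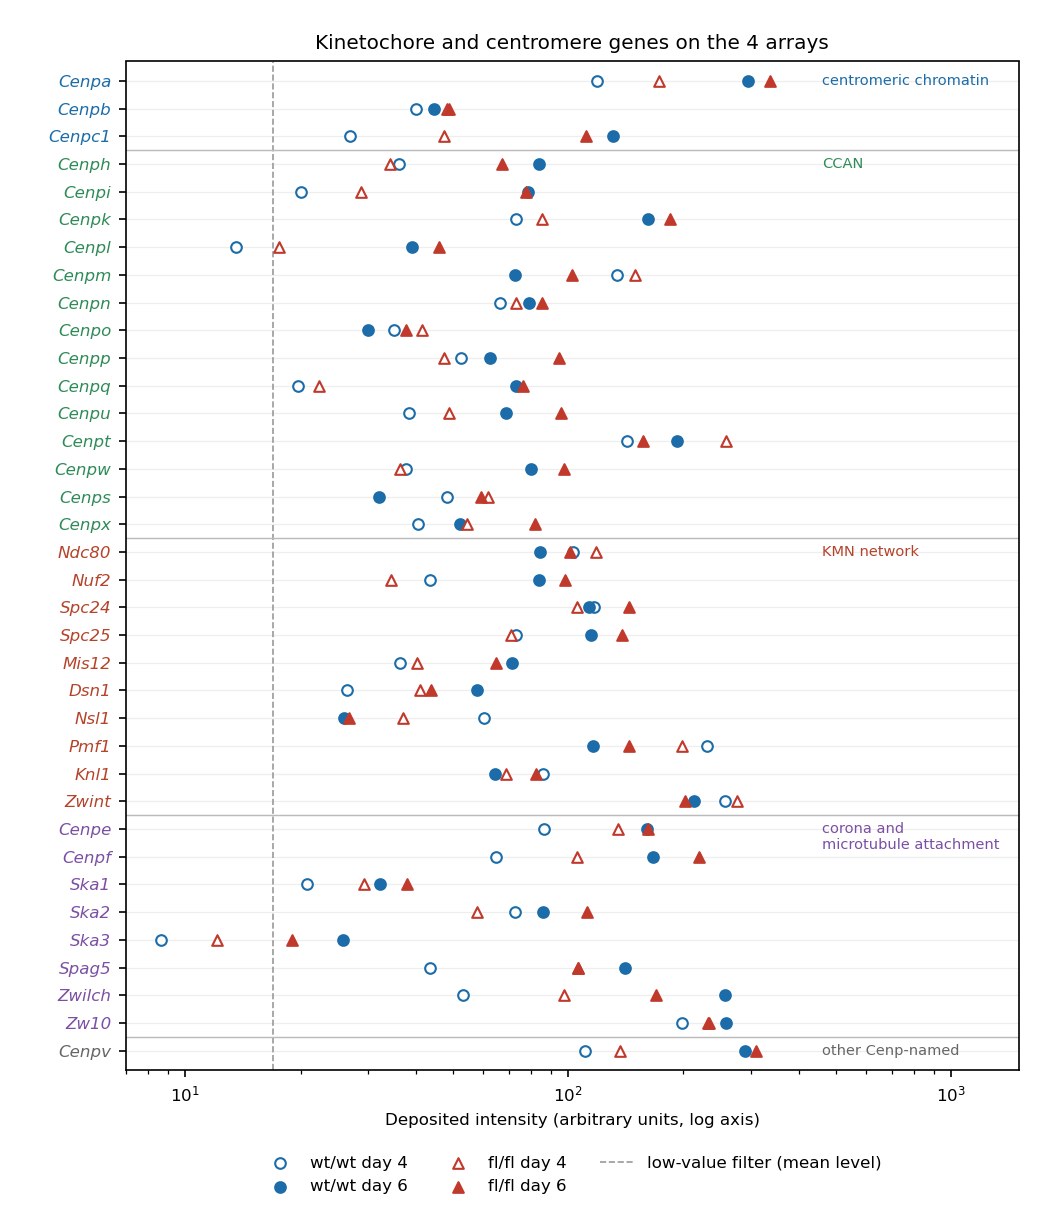
Deposited intensity (log axis) of the brightest probe set of each of the 36 members, 1 point per array, ordered by role; circles are Tacc3 wt/wt and triangles fl/fl, open at day 4 and filled at day 6. Filled symbols lie to the right for Cenpa, Cenpc1, Cenpi and Cenpq and to the left for Cenpm and Pmf1.

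The comparison of day 6 with day 4 addresses what differed between the collection days in each genotype. More members were higher than lower at day 6, by modest amounts. The medians differed between the roles, from 1.20 and 0.90 in centromeric chromatin to -0.14 and 0.14 in the KMN network. Centromeric chromatin has only 3 genes, and its medians are the values of the brightest Cenpa probe set. The other Cenpa probe set above the filter had 0.34 and -0.10. In wt/wt organoids 8 of 35 members (22.9%) were 2-fold higher, against a background of 18.3% of all genes, and in the fl/fl organoids 6 (17.1%), against 12.2%. Members 2-fold higher in both genotypes numbered 4 (Cenpc1, Cenpi, Cenpq and Cenpv), which is 11.4% against 9.37% of all genes, and in at least 1 genotype 10 (28.6%), against 21.1%. None of the members was 2-fold lower in either genotype, where 2.97% (wt/wt), 2.9% (fl/fl) and 1.35% (both) of all genes were. These shares lie near the background and so are no result about the members. The median member difference was 0.55 in wt/wt and 0.47 in the fl/fl organoids, where the median of all genes was 0.17 and 0.00. A difference above 0 was found for 26 members (74.3%) in wt/wt, against 57.5% of all genes, and for 26 in fl/fl, against 49.9%. In both genotypes 24 members (68.6%) had a difference above 0, against 44.2% of all genes, and 7 (20%) had one below 0, against 36.6%. Across the 35 members the day differences of the genotypes, which share no array, correlated at r = 0.71 (rho = 0.71), beside r = 0.80 across all 11392 genes; all points share the same 4 arrays, and genes are not replicates. Cell type markers moved with the day as well. The summed intensity of 3 stem cell markers was 1212 and 7700 in wt/wt and 901 and 4391 in fl/fl, and that of 3 enterocyte markers was 861 and 4637, and 1009.7 and 6913. The summed goblet markers, mostly Tff3, went the other way, with 9912 and 6990, and 14812 and 6805. Muc2, the other goblet marker, read 648 and 676 in wt/wt and 1611 and 583 in fl/fl, so it was not lower in wt/wt. The part of these markers in the members' day differences was not tested.

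**Figure D2:**
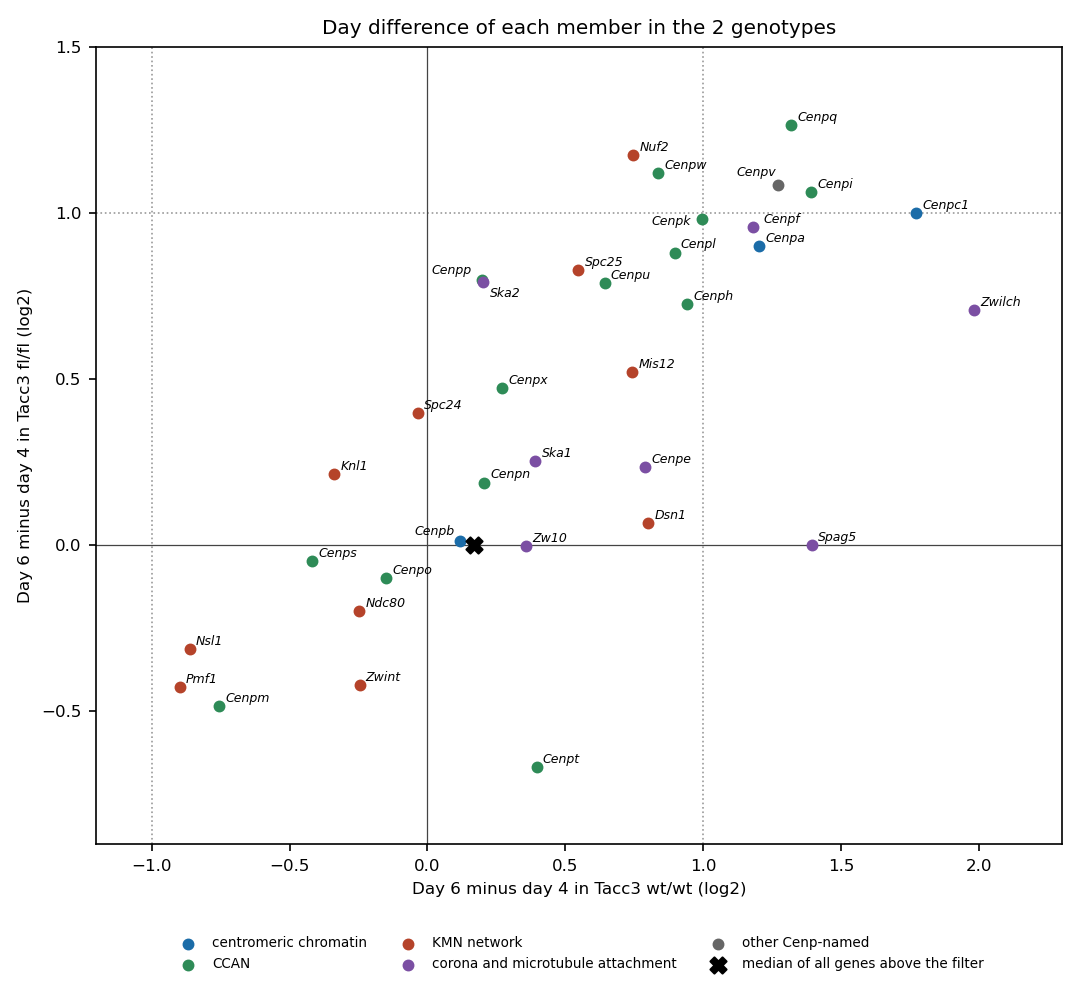
Day 6 minus day 4 (log2) of each of the 35 members above the filter in Tacc3 wt/wt (x axis) and fl/fl (y axis) organoids, coloured by role, with the 2-fold limits dotted and the median of all genes as a cross. Most members lie above 0 on both axes, 4 reach 1 on both, and Cenpt, Spag5 and Zwilch, whose differences are 1 or more apart, lie farthest below the line of equal differences (not drawn).

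The 3 genes of centromeric chromatin had differences above 0 in both genotypes, small ones in Cenpb. Cenpa, the gene of the histone H3 variant that marks the centromere, read 119 at day 4 and 295 at day 6 in wt/wt organoids, and 172 and 336 in the fl/fl organoids. Both day 6 arrays were above both day 4 arrays, with differences of 1.20 and 0.90. The other Cenpa probe set above the filter, 1444416_at, had 0.34 and -0.10. The wt/wt difference of Cenpa fell short of 2-fold with the mean of its probe sets (0.45), after quantile normalization (0.73), after centring (0.82) and with a pseudocount of 64 (0.97). Cenpc1 encodes CENP-C, which links CENP-A chromatin to the Mis12 complex. It read 27.0 and 131 in wt/wt organoids and 47.4 and 111 in the fl/fl organoids, differences of 1.77 and 1.0008, the latter on the limit itself and 0.79 after centring. Again the day 6 arrays were above the day 4 arrays, and the fl/fl values lay between the wt/wt ones. Cenpb, whose product binds a motif in satellite DNA, was nearly level, at 39.9 and 44.7 and at 48.2 and 48.8. Its differences were 0.12 and 0.01.

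The grouping by role was made for this report, and Cenpc1 was placed with centromeric chromatin and not counted with the CCAN. The CCAN connects centromeric chromatin with the outer kinetochore. Of the 14 genes grouped here as CCAN, 10 had a difference above 0 in both genotypes (44.2% of all genes did) and 3 below 0 in both (36.6% of all genes). Their median was 0.52 in wt/wt and 0.76 in the fl/fl organoids. Cenpi, a subunit of the CENP-H/I/K/M group, read 20.1 at day 4 and 78.5 at day 6 in wt/wt and 28.8 and 77.5 in the fl/fl organoids, differences of 1.39 and 1.06. Cenpq, a subunit of the CENP-O/P/Q/U group, went from 19.7 to 73.1 and from 22.3 to 76.1, with 1.32 and 1.26. In these genes the genotypes read nearly the same at day 6. After centring, Cenpi fell short of 2-fold in fl/fl (0.86) and Cenpq in wt/wt (0.93), and with a pseudocount of 64 both did so in both genotypes. Among the partners of Cenpi, Cenpk differed by 0.99 and 0.98 (73.1 and 161, 85.3 and 184) and Cenph by 0.94 and 0.73 (36.1 and 84.0, 34.3 and 67.1), just inside 2-fold. Cenpm, the fourth gene of that group, went the other way. It read 134 and 72.7 in wt/wt and 149 and 102 in the fl/fl organoids, lower at day 6 on both sides with -0.76 and -0.48. The partners of Cenpq were likewise not uniform, with 0.64 and 0.79 for Cenpu, 0.20 and 0.80 for Cenpp and -0.15 and -0.10 for Cenpo. Cenpo was one of the dimmer members, between 30.1 and 41.4.

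The histone-fold genes of the CCAN were similarly mixed. Cenpw, whose product pairs with CENP-T, read 37.8 and 79.9 in wt/wt and 36.3 and 97.8 in the fl/fl organoids, differences of 0.83 and 1.12. Cenpt, which holds the Ndc80 complex by its flexible tail, did not follow it. Its intensities were 142 and 192 in wt/wt and 259 and 157 in the fl/fl organoids, so that it was higher at day 6 by 0.40 in the former and lower by 0.67 in the latter (-0.67). The highest of the 4 arrays was fl/fl at day 4. Cenps and Cenpx, partners in a DNA-binding tetramer that also serves DNA repair, differed from each other, Cenps with -0.42 and -0.05 and Cenpx with 0.27 and 0.47. In the pair of partners that contacts CENP-A nucleosomes, Cenpl had 0.90 and 0.88, and Cenpn had 0.21 and 0.19. Cenpl was the dimmest member above the filter at day 4, at 13.6 and 17.6, where the pseudocount holds the difference down.

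The KMN network, the microtubule-binding core, had a median of -0.14 in wt/wt and 0.14 in the fl/fl organoids. In the intensities as deposited, subunits of the same complex had differences of opposite sign. Of the 10 genes of the network, 4 had differences above 0 in both genotypes and 4 below 0 in both. Those of Spc24 and Knl1 differed in sign between the genotypes. With 44.2% of all genes above 0 in both and 36.6% below, these counts are near the background and no trait of the network. They hold for the intensities as deposited. Signs of small differences depend on the scaling, and scaling to the hybridization controls moves day differences upward. Zwint, counted below 0 by its brightest probe set, was above 0 in both genotypes by 4 of its 6 probe sets above the filter. Nsl1, also counted below 0, was above 0 in both genotypes by its other probe set, which was below the filter. In the Ndc80 complex, Nuf2 read 43.6 and 84.0 in wt/wt and 34.4 and 97.8 in the fl/fl organoids, higher at day 6 on both sides by 0.75 and 1.17, the latter 0.72 with a pseudocount of 64. Ndc80, its direct partner and the subunit that touches the microtubule, read 103 and 84.4, and 118 and 101, with differences of -0.25 and -0.20. Both day 6 values of Ndc80 thus lay below both day 4 values, the reverse of Nuf2. Of the inner pair, Spc24 had -0.03 and 0.40, and Spc25 had 0.55 and 0.83. All of these genes but Spc25 had 1 probe set on the array.

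The Mis12 complex, which ties the Ndc80 complex to the centromere, also held differences of both signs. Mis12 read 36.3 and 71.5 in wt/wt and 40.3 and 64.8 in the fl/fl organoids, with 0.74 and 0.52. Dsn1 had 0.80 and 0.07, from 26.4 and 57.9 and from 41.1 and 43.8. Nsl1 and Pmf1, the remaining subunits, were lower at day 6 by their brightest probe sets. Nsl1 read 60.3 and 26.006, and 37.1 and 26.7, with -0.86 and -0.31, and Pmf1 had -0.90 and -0.43. The other Nsl1 probe set, 1455852_at, went the other way with 0.55 and 0.77. Its mean of 5.03 was just below the filter of 5.04. Pmf1 was among the brightest members at day 4, with 229.9 in wt/wt and 199 in the fl/fl organoids against 116 and 144 at day 6. These values come from an x_at probe set. The other Pmf1 probe set above the filter, 1416707_a_at, had smaller differences of -0.40 and -0.09. After quantile normalization Nsl1 and Pmf1 became 2-fold lower in wt/wt organoids (-1.12 and -1.38), as did Cenpm (-1.21). Knl1, the scaffold of the spindle checkpoint proteins, had -0.34 and 0.21, and its partner Zwint -0.25 and -0.42.

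Among genes of the corona and of microtubule attachment, the day difference was larger in wt/wt than in the fl/fl organoids for 6 of 7 members above the filter, with medians of 0.79 and 0.25. The same held for 20 of all 35 members (57.1%) and for 58% of all genes, whose medians were 0.17 and 0.00, so nothing particular to these genes is read from it. Cenpf, a large coiled-coil protein of the nuclear envelope and corona, read 64.6 and 167 in wt/wt and 105 and 219.7 in the fl/fl organoids, differences of 1.18 and 0.96, with the former at 0.79 after centring. The motor gene Cenpe had 0.79 and 0.24, with 86.2 and 161 and with 135 and 162. Zwilch, a subunit of the RZZ complex that recruits dynein and checkpoint proteins, showed the highest wt/wt day difference of any member, 1.98. It read 53.3 and 257 in wt/wt and 97.5 and 169 in the fl/fl organoids, where the difference was 0.71. Zw10, another RZZ subunit with a further role in membrane traffic, had 0.36 and -0.0026 and was bright on every array (198 to 259). The SKA complex, which tracks microtubule ends, had 0.39 and 0.25 for Ska1 and 0.20 and 0.79 for Ska2. Ska3 was below the filter, with 8.65 and 25.9 in wt/wt and 12.1 and 19.0 in the fl/fl organoids.

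Spag5 encodes astrin, which stabilises attached kinetochores and is found on the spindle. It read 43.5 at day 4 and 140.3 at day 6 in wt/wt organoids, and 106 on both days in the fl/fl organoids. The day difference was 1.39 in wt/wt and 0.00 in the fl/fl organoids, and the wt/wt day 4 array alone was low. Cenpv, which lies outside these complexes and whose product was found on mitotic chromosomes, was 2-fold higher in both genotypes. It read 110.5 and 289 in wt/wt and 137 and 309 in the fl/fl organoids, with 1.27 and 1.09, which were both 0.88 after centring.

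**Figure D3:**
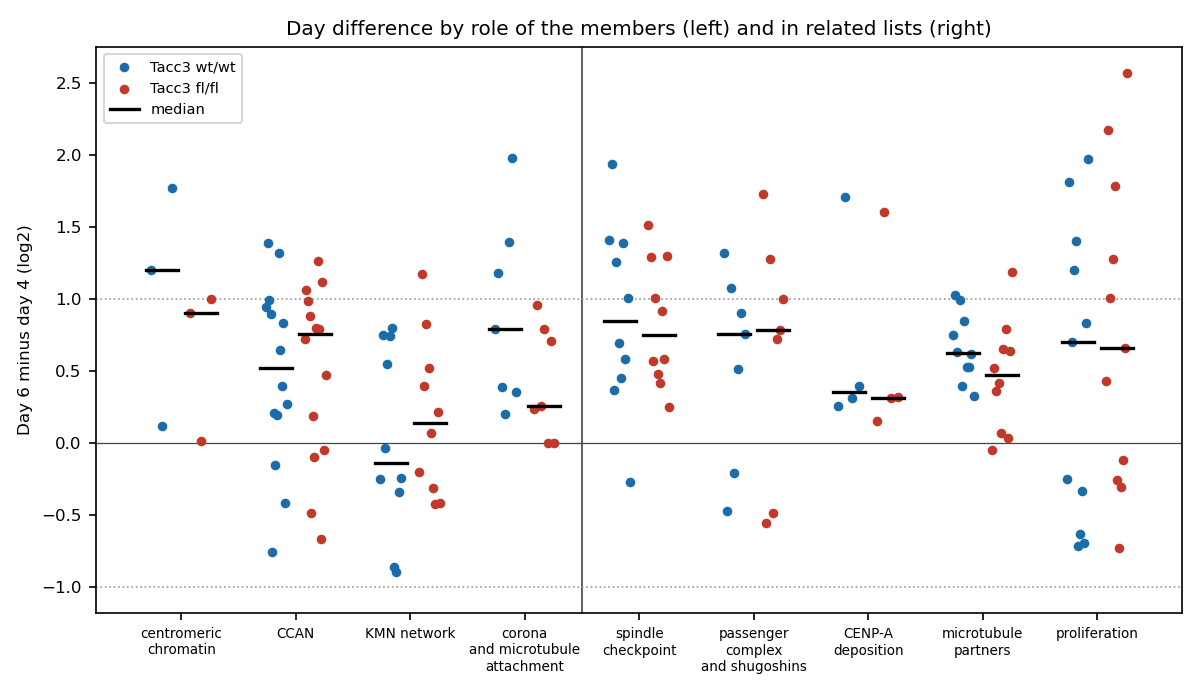
Day 6 minus day 4 (log2) of each gene above the filter, by role of the members (left of the line; Cenpv is not drawn) and in related lists (right), with wt/wt in blue, fl/fl in red and the median as a bar. The KMN network has medians of -0.14 and 0.14, below the medians of the other roles.

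Genes that act with the kinetochore were described in lists that were chosen with earlier results of these data known, beside 18.3% of all genes 2-fold higher in wt/wt and 12.2% in fl/fl. Of 10 spindle checkpoint genes above the filter, 5 were 2-fold higher in wt/wt and 4 in the fl/fl organoids, with medians of 0.85 and 0.75. Bub1, a checkpoint kinase, had 1.94 and 1.29, and Mad2l1, which restrains the anaphase-promoting complex, 1.41 and 1.51. Kntc1, the third RZZ subunit, had 1.004 and 1.30. Thus Kntc1 and Zwilch were 2-fold higher in wt/wt organoids and Zw10 was not. The passenger complex and shugoshin list, with 7 genes above the filter, held 2 that were 2-fold higher in wt/wt and 3 in the fl/fl organoids, with medians of 0.75 and 0.78. Aurkb, the kinase that corrects wrong attachments, had 1.32 and 1.73 and Birc5 1.07 and 1.27. Their partners had values below 0, Incenp with -0.47 and -0.56 and Cdca8 with -0.21 and -0.49. Aurkb and Incenp were read from x_at probe sets and Cdca8 from an s_at probe set. The genes of these lists are given only by their brightest probe sets and for the intensities as deposited, so these signs may depend on both. Of 4 genes in the list for CENP-A deposition, Mis18a, which prepares the centromere for new CENP-A, had 1.71 and 1.61, and the other 3 lay between 0.15 and 0.40. Of 10 microtubule partners 1 was 2-fold higher in each genotype, Kif18a in wt/wt (1.02) and Ckap5 in the fl/fl organoids (1.19), which is below the share of all genes.

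General proliferation genes had differences of both signs. Of 11 above the filter, 4 were 2-fold higher in wt/wt and 5 in the fl/fl organoids, with medians of 0.70 and 0.66 and a range from -0.72 to 1.97 and from -0.73 to 2.57. Above 0 in both genotypes were 6 genes, and below 0 in both were 4. Pcna (1.97 and 2.57), Top2a (1.81 and 2.17), Cdk1 (1.40 and 1.78) and Ccnb2 (1.20 and 1.28) were higher at day 6. The genes below 0 in both were Foxm1 (-0.72 and -0.26), Mybl2 (-0.63 and -0.73), E2f1 (-0.33 and -0.30) and Ccne1 (-0.69 and -0.12). Mki67, the common marker of cycling cells, had -0.25 and 0.43, within the 2-fold limits.

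Probe sets of one member disagreed in some genes, which bears on the differences of opposite sign within complexes. Among 15 members with several probe sets above the filter, all probe sets of the gene had the same sign of day difference in both genotypes for 5 and not for 10. The share over all genes was not computed, so no trait of the members is read from this. For Cenpk (-0.05), Ska2 (-0.04), Spc25 (-0.06) and Cenpa (-0.10), the only value of the other sign was a small one in fl/fl. That of Cenpa came from intensities of 7.91 and 6.30. None had probe sets that were 2-fold in opposite directions. Zwint had the widest spread: its brightest probe set, 1427539_a_at, read 256 and 214 in wt/wt and 275 and 202 in the fl/fl organoids, with differences of -0.25 and -0.42. Its probe set 1423724_at read 34.3 and 201, and 51.4 and 220.2, with 2.11 and 1.81. The same gene was thus level by one probe set and over 2-fold higher by another. The 3 probe sets of Cenpf had 1.18, -0.31 and -0.84 in wt/wt organoids, and with the mean of its probe sets the Cenpf difference was 0.01. For Cenpe, 1439040_at had -0.30 and -0.43 against 0.79 and 0.24 for the brightest. For Zw10, 1441888_x_at had -0.77 and -0.75. The positions of these probe sets along the transcripts were not used here, and the part of the 5' to 3' ratios in their disagreement was not tested. Of the 4 members that were 2-fold higher in both genotypes (Cenpc1, Cenpi, Cenpq and Cenpv), each had 1 probe set on the array.

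**Figure D4:**
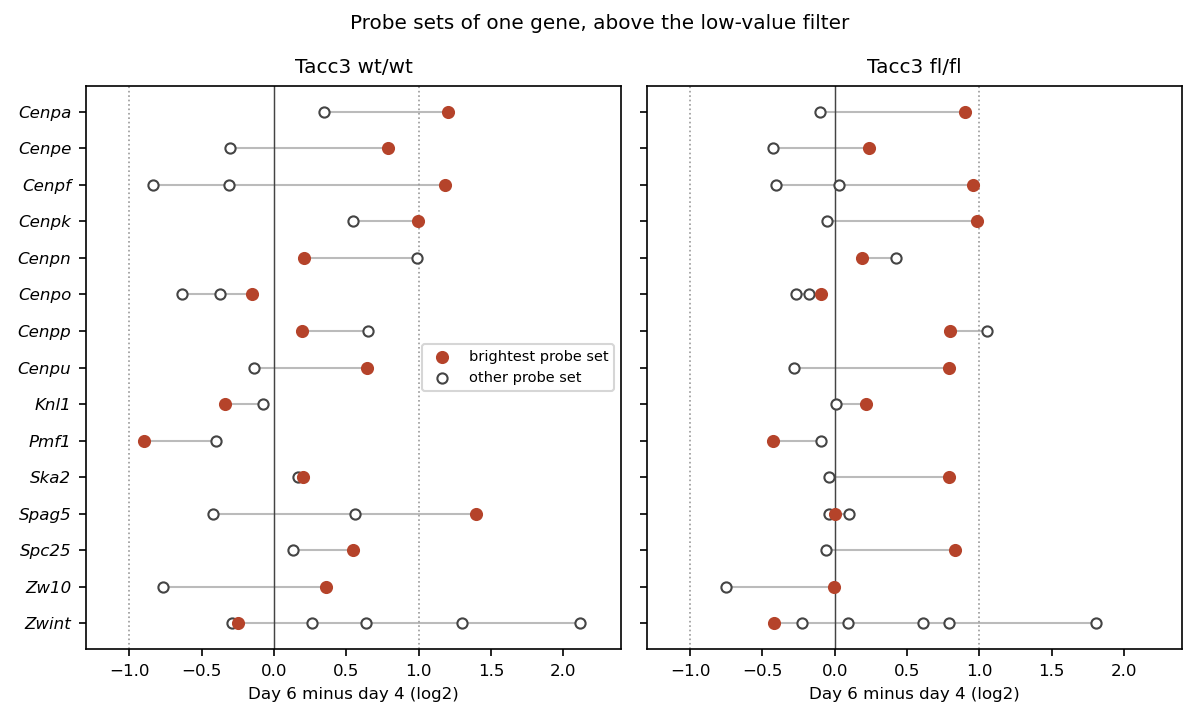
Day 6 minus day 4 (log2) of every probe set above the filter for the 15 members with more than 1, in Tacc3 wt/wt (left) and fl/fl organoids (right); the brightest probe set is filled. Zwint spans -0.29 to 2.11 in wt/wt and -0.42 to 1.81 in the fl/fl organoids.

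In both genotypes the median day difference was lower in members with TTTGAA than without it, and higher in members with CCAAT than without it. The 11 members above the filter with TTTGAA in a window had medians of 0.55 in wt/wt and 0.21 in the fl/fl organoids, and the 20 without it 0.69 and 0.62. The 20 members with CCAAT had medians of 0.81 and 0.79, and the 11 without it 0.20 and 0.01. Of the sequences printed above, Ndc80 with its TTTGAA was slightly lower at day 6, and Nuf2 with none of the letters was 2-fold higher in the fl/fl organoids. These are descriptions of small groups on 4 arrays.

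Setting fl/fl against wt/wt cultures addresses what differed where Tacc3 was floxed, and most members differed little. At day 4, 1 of 35 members was 2-fold higher in the fl/fl organoids (Spag5, 2.86% against 1.38% of all genes) and 0 were lower (against 0.105%). At day 6, 0 members were 2-fold higher (against 0.211%) and 0 lower (against 0.571%). The median member difference was 0.18 at day 4 and 0.17 at day 6, beside 0.15 and 0.05 for all genes, so the members lay 0.03 and 0.12 above the median gene. The day 6 distance was 0.013 with the mean of probe sets and 0.037 without x_at and s_at probe sets. Above 0 were 25 members (71.4%) at day 4, against 66.7% of all genes, and 25 at day 6, against 56.6%. A difference above 0 on both days was found for 16 members (45.7% against 38% of all genes) and below 0 on both for Cenph alone (2.86% against 14.5%). Between the genotypes the hybridization controls were 1.37-fold brighter on the wt/wt array on each day, the Actb 5' to 3' ratio at day 6 was 0.180 (wt/wt) and 0.261 (fl/fl), and the summed goblet markers at day 4 were 9912 and 14812. At day 6 the summed markers in wt/wt and fl/fl were 227 and 595 for enteroendocrine cells, 7700 and 4391 for stem cells, and 4637 and 6913 for enterocytes. The stem cell sum was mostly Olfm4 (6534 and 3478). Lgr5 read 983 and 706, and Ascl2 went the other way with 183 and 207. The part of all these values in the members' genotype differences was not tested. By brightest probe set, none of the members had a difference of 0.4 or more in the same direction on both days. The nearest were Cenpf, with 0.59 and 0.37, and Cenpx, with 0.32 and 0.52. The other Cenpf probe sets above the filter were below 0 at day 4. They had -0.14 and 0.30 (1458447_at) and -0.38 and -0.04 (1452334_at).

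Spag5 was the member with the highest day 4 difference, 1.04, and at day 6 it had -0.36. Its 4 values were 43.5 in wt/wt against 106 in the fl/fl organoids at day 4, and 140.3 against 106 at day 6. The other Spag5 probe sets above the filter had 0.49 and -0.11 (1433892_at) and -0.39 and 0.13 (1427498_a_at). The brightest is an s_at probe set, a kind that can bind several transcripts; without such probe sets the day 4 difference was 0.49, and with the mean of the gene's probe sets it was 0.38, so the 2-fold call was lost. Cenpt, with 142 against 259 at day 4 and 192 against 157 at day 6, had 0.80 and -0.27. Zwilch, with 53.3 against 97.5 and 257 against 169, had 0.71 and -0.56. The day differences of the genotypes were 1 or more apart for these 3 members (8.57%), against 4.75% of all genes. In all 3 genes fl/fl was the higher genotype at day 4 and the lower at day 6.

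By their brightest probe sets, that turn was shared by some members and reversed in others. At day 4 above and at day 6 below the wt/wt level were 9 members (25.7% against 28.5% of all genes): Cenpc1, Cenpi, Cenpt, Mis12, Dsn1, Zwint, Spag5, Zwilch and Zw10. The opposite turn was shown by 9 members (25.7% against 18.5%): Cenpp, Cenpw, Nuf2, Spc24, Spc25, Nsl1, Pmf1, Knl1 and Ska2. Their other probe sets above the filter did not turn in Cenpp (0.09 and 0.49), Knl1 (-0.25 and -0.17) and Ska2 (-0.10 and -0.31). That of Pmf1 did (-0.23 and 0.08). In the first list, the other probe set of Zw10 above the filter did not turn either (-0.15 and -0.14). Of the 4 Ndc80 complex genes, 3 were slightly lower in the fl/fl organoids at day 4 by their brightest probe sets. Their values were -0.24 for Nuf2, -0.13 for Spc24 and -0.04 for Spc25, and at day 6 they were 0.19, 0.31 and 0.24. The other Spc25 probe set above the filter, 1453815_at, had -0.03 and -0.23 and did not turn. Ndc80 itself was higher on both days, by 0.17 and 0.22. Across the 35 members the genotype differences of the days, which share no array, correlated at r = -0.45 (rho = -0.36), against r = 0.02 across all genes; the points share the same arrays and no p-value was computed. After centring each array on its median, the day 4 median of the members was -0.03, so the day 4 direction of the group depends on the scaling.

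**Figure D5:**
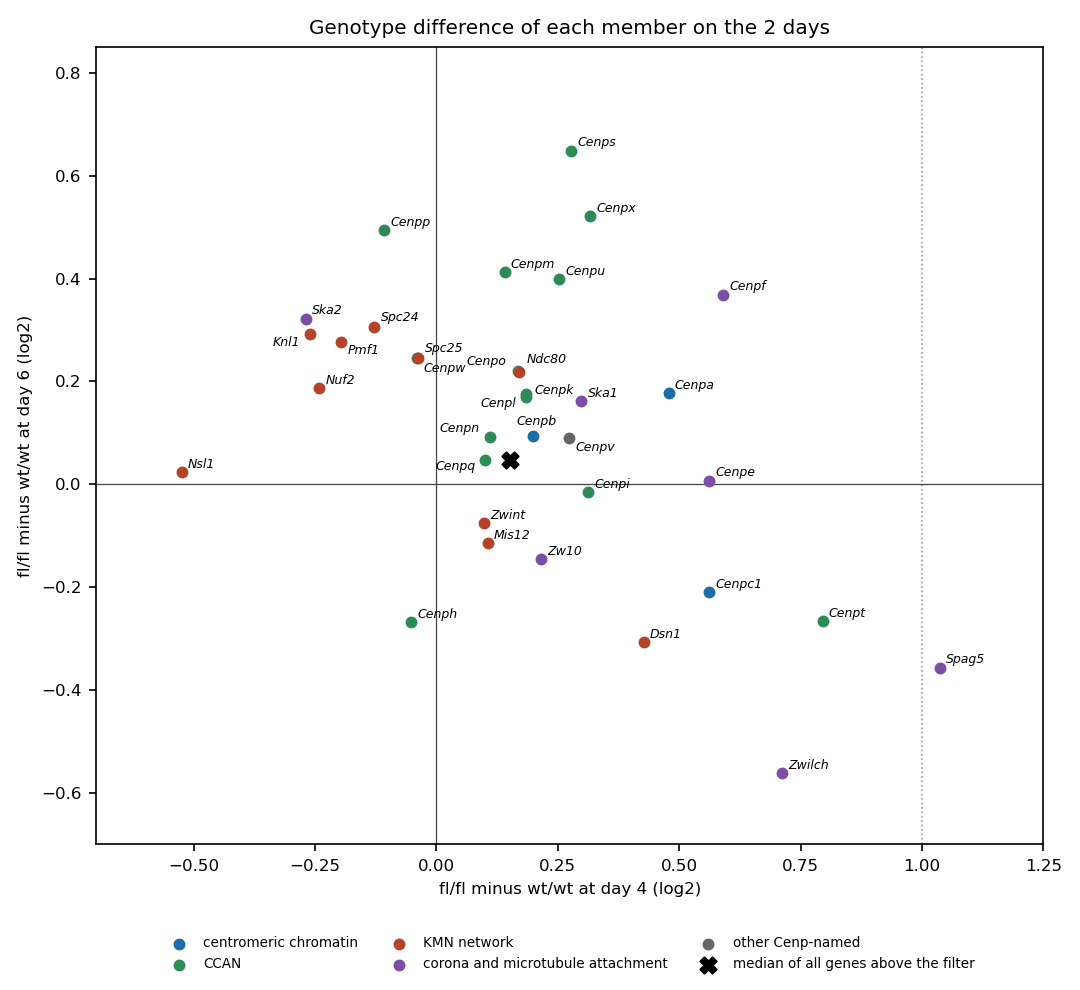
Tacc3 fl/fl minus wt/wt (log2) of each of the 35 members above the filter at day 4 (x axis) and day 6 (y axis), coloured by role, with the median of all genes as a cross; the dotted line is the 2-fold limit at day 4. Spag5 lies past it at 1.04, and Zwilch, Cenpt and Spag5 lie at the lower right.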

How the data were processed

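Gene expression was measured on 4 Affymetrix arrays, 1 for each Tacc3 genotype and day, from biotinylated cRNA made from 100 ng of total RNA, per the labels' protocols. Groups were taken from the sample titles. The authors deposited, for every array, a linear intensity of each of its 45101 probe sets. How they summarised, background-corrected and normalized these is not given in the sources used here. The number of arrays limits the precision.

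Intensities were used as deposited, on the scale of log2(intensity + 16), with no further normalization (Python 3.11.15, pandas 2.3.3). In the platform annotation 34945 probe sets have a single gene symbol, and 932 have several and were given no gene. Symbols were updated by Entrez ID through RefSeq GRCm38.p6, which matched 34741, and promoter windows are RefSeq's of that build. Each gene took its probe set with the highest mean, and genes with a mean below log2 5.04 were not counted. Differences were called at 1 on the log2 scale. The calculation was tested on simulated data in which only bright genes were changed, with all their probe sets together. Changes in dim genes and disagreeing probe sets were not simulated. Alternatives were pseudocounts of 1 and 64, quantile normalization, centring, scaling to the 18 hybridization control probe sets, the mean of probe sets, no x_at or s_at probe sets, and no filter.

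The members, lists and tests were chosen with earlier results of these data known. Values on all arrays were given by rule for members 2-fold different between days in both genotypes or between genotypes on either day, members with genotype differences of 0.4 or more in one direction on both days, and members whose day differences were 1 or more apart. Others complete a complex. Of each comparison list, up to 4 genes with the largest mean day difference in size were named by rule. Incenp, Cdca8, Mki67, Foxm1, Mybl2, E2f1 and Ccne1 were named after their values were seen.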

Additional observations from a re-analysis of the deposited data

Results flagged for a closer look

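In 3 members the genotype difference turned over between the days and the fl/fl and wt/wt day differences lay 1 or more apart, which 8.57% of the members and 4.75% of all genes did by that distance. The fl/fl day difference minus the wt/wt day difference was -1.39 for Spag5, -1.27 for Zwilch and -1.06 for Cenpt. Each rests on 1 array per group, and the difference was not tested. Spag5 had other probe sets above the filter, which had day differences of 0.56 and -0.04 (1433892_at) and -0.42 and 0.10 (1427498_a_at) in wt/wt and fl/fl organoids. Zwilch and Cenpt had 1 probe set each.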

How the results depend on the processing

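The sizes of the day differences depended on scaling. Centring shifts each array by a constant, so the distance of the members from the median gene could not change there. With the mean of probe sets that distance went from 0.38 to 0.20 in wt/wt and from 0.47 to 0.24 in fl/fl organoids. Members 2-fold higher at day 6 in wt/wt organoids numbered 13 with pseudocount 1, 3 with pseudocount 64, 5 after quantile normalization, 4 after centring, 25 after scaling to the hybridization controls and 5 with the mean of probe sets, against 8. The share of all genes 2-fold higher was then 23.0%, 9.49%, 10.4%, 9.20%, 51.1% and 11.5%, in the same order. In fl/fl organoids they numbered 0 with pseudocount 64, 1 after quantile normalization, 1 after centring and 24 after control scaling, against 6, where 6.25%, 8.14%, 8.17% and 45.7% of all genes were. Members 2-fold lower in wt/wt organoids numbered 1 with pseudocount 1, 3 after quantile normalization and 3 after centring, against 0; 7.53%, 9.71% and 11.8% of all genes were 2-fold lower there. Of the day differences called 2-fold, only those of Cenpc1 and Zwilch in wt/wt stayed 2-fold under every alternative. The median member day difference in wt/wt organoids was 0.38 with pseudocount 64, 0.35 after quantile normalization, 0.16 after centring, 1.39 after control scaling and 0.37 with the mean of probe sets. In fl/fl organoids it was 0.58 with pseudocount 1, 0.30 with pseudocount 64, 0.29 after quantile normalization, 0.27 after centring, 1.39 after control scaling and 0.29 with the mean of probe sets. The median of all genes moved with the scaling, to -0.13 and -0.12 after quantile normalization, -0.22 and -0.21 after centring and 1.02 and 0.91 after control scaling, so that the members lay 0.38 and 0.47 above it in the reported values and between 0.20 and 0.67 (wt/wt) and 0.24 and 0.58 (fl/fl) over the alternatives. At day 4 members 2-fold higher in fl/fl organoids numbered 0 with pseudocount 64, after quantile normalization, after centring, with the mean of probe sets and when x_at and s_at probe sets were dropped, and 2 after control scaling. The day 4 median was 0.054 after quantile normalization, -0.029 after centring and 0.49 after control scaling. At day 6 the median was 0.54 after control scaling, with 1 member 2-fold higher, and 0.055 with the mean of probe sets; it was 0.093 with pseudocount 64 and 0.094 without x_at or s_at probe sets. The median of the members' fl/fl minus wt/wt day differences was -0.02, and 0.16 after centring. Changes of sign were listed only where a value reached 1 in size, as for Zw10 in fl/fl organoids, from -0.0026 to 1.03 after control scaling. Smaller differences changed sign too. After quantile normalization Cenpb had -0.10 in wt/wt and -0.12 in fl/fl, and Cenpn had -0.19 and -0.003. The scalings differ by construction in what they hold level between days. No other cause was tested, and which scaling is right cannot be told from these arrays. No paired analysis was possible because each group has 1 array and the labels give no replicate numbers. Dim members, such as Cenpl at 13.6, are limited by their closeness to the filter.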

Other observations

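A second Cenpa probe set, 1444416_at, which was chosen after its values were seen, read higher on the wt/wt array of each day. Its intensities were 33.2 (wt/wt) and 7.91 (fl/fl) at day 4, and 46.3 (wt/wt) and 6.30 (fl/fl) at day 6, so both fl/fl values lay below the filter of 16.9, which the probe set passed through its wt/wt arrays, and no size is given for the difference. The brightest Cenpa probe set, 1450842_a_at, had genotype differences of 0.48 and 0.18. The remaining probe set, 1441864_x_at, lay below the filter. Among the 72 probe sets of the members, 57 were above the filter.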
